A study of Homo sapiens with 20 samples.

Results

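Specific and gelatinase granules are the stores that a neutrophil precursor fills after the azurophil granules, and their contents mark the myelocyte and later stages. The set described here holds 7 genes for proteins of these granules, LTF, LCN2, CAMP, MMP8, MMP9, PGLYRP1 and OLFM4, found by symbol among the 28051 named genes of the RNAseq data. They were followed in HL60, an acute myeloid leukaemia cell line with promyelocyte-like features that all-trans retinoic acid (ATRA) drives toward neutrophil-like cells. Control cells that express Cas9 and cells labelled HK3-null were each given, for 36 h, 1 µM ATRA or the solvent, 0.01% DMSO. Every group had 3 RNAseq replicates (12 libraries) and 2 ATACseq replicates (8 libraries). Per the methods, knockout lines were made with a lentiviral vector that carries Cas9 and puromycin resistance, and clonal populations were then grown out by limiting dilution. The control and the HK3-null cells of the RNAseq data are both described as clones, and how the control was made is not given in the sources used here. All knockout libraries carry 1 label. Whether their replicates are different clones is not stated, and the effects of clone and of genotype cannot be told apart.

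Levels are given as normalized counts, which are read counts scaled between libraries by the authors, and the libraries summed to between 29056349 and 31549781 of them. HK3 itself was counted at 90, 65 and 105 in Cas9 DMSO, 1305, 1298 and 1850 in Cas9 ATRA, 344, 302 and 346 in DMSO under the HK3-null label, and 1384, 1285 and 1975 in ATRA under that label. Under the HK3-null label the HK3 message was not reduced in either treatment, and was higher in DMSO (log2 fold change 1.94, limma adjusted p = 3.84e-06). Counts of the whole message cannot show a disrupted protein, so HK3-null is used here as the label only. For its knockout lines the paper reports insertions or deletions at the Cas9 cut site. It also reports no HK3 by mass spectrometry in HK3 knockout HL60 cells after vitamin D. Whether the cells of these libraries were among those measured is not stated. MPO-type promyelocyte markers were present in every library, with summed levels of 555983 to 837442 over 8 markers (MPO, ELANE, PRTN3, AZU1, CTSG, CD33, MYB and SPI1). Cas9 DMSO replicate 1 stood apart with 16750 genes above 0, where the lowest library had 15031.

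In myelopoiesis the granule genes switch on in sequence. Azurophil proteins such as myeloperoxidase are made at the promyelocyte stage, specific granule proteins at the myelocyte stage under C/EBPε, and gelatinase granule proteins somewhat later. Lactoferrin (LTF) and lipocalin-2 (LCN2) bind iron or its bacterial carriers, CAMP is the precursor of the peptide LL-37, and PGLYRP1 binds bacterial peptidoglycan. MMP8 and MMP9 are the neutrophil collagenase and gelatinase B, and olfactomedin 4 (OLFM4) marks a subset of neutrophils. HL60 cells are a textbook case of secondary granule deficiency, since they make azurophil granules but little or no lactoferrin even after ATRA.

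The genes lie on 6 chromosomes, in GRCh38 coordinates of GENCODE v44. LTF (17 exons) lies at chr3:46435645-46464905 and CAMP (4 exons) at chr3:48223495-48225485. LCN2 (7 exons) lies at chr9:128149453-128153453, MMP8 (10 exons) at chr11:102711796-102724954 and MMP9 (13 exons) at chr20:46008908-46016561. OLFM4 (5 exons) lies at chr13:53028813-53052057 and PGLYRP1 (3 exons) at chr19:46019153-46023053. RefSeq promoter sequences of GRCh38.p14 matched 5 of the 7 genes. The 250 bases before the transcript start were searched on both strands for TTGCNNAA, a motif of C/EBP factors, and for GAGGAAG, a motif of PU.1. These 4 promoters are shown because each holds a match, written in capitals, and because LCN2 is the gene that stayed near 0 while the other 3 did not.

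LTF, chr3:46464906-46465155, minus strand: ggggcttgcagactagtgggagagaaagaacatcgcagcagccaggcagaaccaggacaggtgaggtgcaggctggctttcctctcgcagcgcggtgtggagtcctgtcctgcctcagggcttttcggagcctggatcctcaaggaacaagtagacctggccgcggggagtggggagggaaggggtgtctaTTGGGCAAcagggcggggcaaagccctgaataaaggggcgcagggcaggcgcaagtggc

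LCN2, chr9:128149203-128149452, plus strand: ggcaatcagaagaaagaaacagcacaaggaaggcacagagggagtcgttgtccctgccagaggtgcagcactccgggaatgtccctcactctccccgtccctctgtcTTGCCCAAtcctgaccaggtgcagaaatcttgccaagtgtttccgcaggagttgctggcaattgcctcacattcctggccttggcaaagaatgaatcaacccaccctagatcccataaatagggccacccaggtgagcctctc

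CAMP, chr3:48223245-48223494, plus strand: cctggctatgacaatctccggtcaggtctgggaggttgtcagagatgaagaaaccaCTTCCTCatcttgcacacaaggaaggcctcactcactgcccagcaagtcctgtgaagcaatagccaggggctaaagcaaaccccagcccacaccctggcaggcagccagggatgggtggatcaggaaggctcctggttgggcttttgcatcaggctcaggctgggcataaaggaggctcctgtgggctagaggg

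MMP8, chr11:102724955-102725204, minus strand: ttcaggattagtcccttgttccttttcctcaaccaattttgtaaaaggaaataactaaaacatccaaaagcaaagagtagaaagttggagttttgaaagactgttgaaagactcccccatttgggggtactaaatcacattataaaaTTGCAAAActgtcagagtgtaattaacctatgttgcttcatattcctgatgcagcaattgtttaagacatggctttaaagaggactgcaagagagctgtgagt

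The C/EBP letters begin at -59 from the transcript start in LTF, -143 in LCN2 and -103 in MMP8. CAMP has the PU.1 letters at -194, and OLFM4 held neither motif in this window. Over 35116 promoters of the same length, 9.05% held the C/EBP letters and 11.2% the PU.1 letters. A match describes the sequence only, and both LCN2, which stayed near 0, and LTF have the C/EBP letters.

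All 7 genes stayed near 0, at 10 normalized counts or fewer, in every one of the 6 Cas9 libraries, with or without ATRA. LCN2 stayed near 0 in all 12 libraries. In the libraries labelled HK3-null the other 6 genes had group means of 13.3 to 85 counts. Summed over the 7 genes, the Cas9 libraries held 10, 3 and 9 counts in DMSO and 11, 7 and 20 in ATRA. The libraries labelled HK3-null held 265, 231 and 220 in DMSO and 264, 255 and 285 in ATRA, and the 2 genotypes did not overlap. The share of all genes whose counts did not overlap between groups was not determined. No lack of overlap, here or below, is therefore used as support. Even there the summed level was only 7.43 to 9.56 CPM, against 0.0956 to 0.688 CPM in the Cas9 libraries. In bulk RNA, more cells with the message and more message per cell cannot be told apart.

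**Figure D1:**
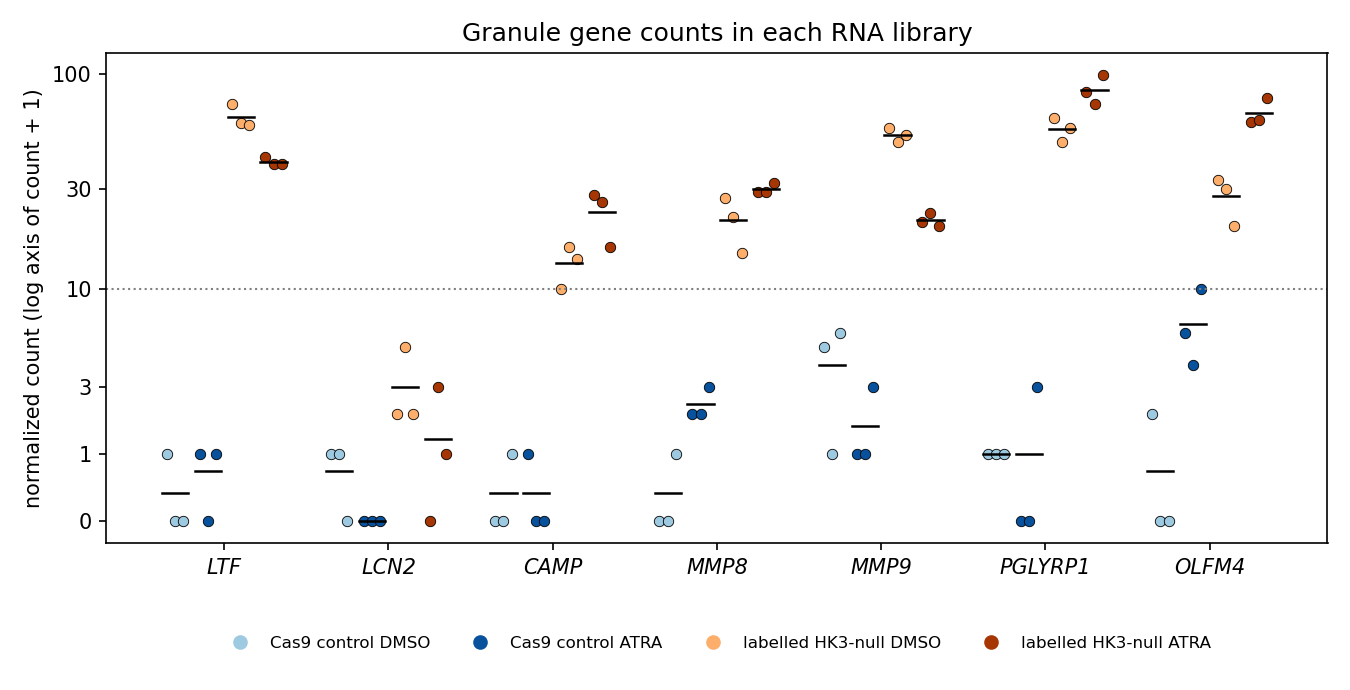
Normalized count of each of the 7 genes in the 12 RNAseq libraries, on a log axis of the count plus 1. Points are libraries, bars are group means, and the dotted line marks 10 counts, the limit used for near 0; LCN2 lies below it in all 12 libraries and every Cas9 point lies on or below it.

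Among the iron-related genes, LTF was counted at 1, 0 and 0 in Cas9 DMSO and at 1, 0 and 1 in Cas9 ATRA. Under the HK3-null label it was counted at 73, 60 and 59 in DMSO and at 42, 39 and 39 in ATRA. LTF was thus at the floor of 1 count in Cas9 cells in both treatments, and its groups did not overlap between genotypes. The ratio of summed counts, 192 to 1, was 192 in DMSO (95% counting interval 34.1 to 7623) and, at 120 to 2, 60 in ATRA (16.3 to 501). These intervals cover counting error only. LCN2 was counted at 1, 1 and 0 in Cas9 DMSO, 0, 0 and 0 in Cas9 ATRA, 2, 5 and 2 in DMSO under the HK3-null label and 0, 3 and 1 in ATRA under that label. A count of 0 allows up to 3 reads, or 2.61 to 3.84 normalized counts in the Cas9 ATRA libraries, so LCN2, with at most 5 counts in any library, was at or near the limit of detection. The LCN2 ratio between genotypes in DMSO, 9 counts to 2, was 4.5 with an interval of 0.931 to 42.8, which includes no difference. LTF and LCN2, which neutrophil precursors usually make at the same stage, were therefore measured at unlike levels in the same libraries.

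CAMP and PGLYRP1, the antimicrobial members, had the same low floor in Cas9 cells. CAMP was counted at 0, 0 and 1 in Cas9 DMSO and at 1, 0 and 0 in Cas9 ATRA, against 10, 16 and 14 in DMSO and 28, 26 and 16 in ATRA under the HK3-null label. Its lowest library under that label, at 10 counts, still met the near 0 limit. CAMP summed to 40 counts against 1 in DMSO, a ratio of 40 (6.78 to 1619), and to 70 against 1 in ATRA, a ratio of 70 (12.2 to 2804). PGLYRP1 was counted at 1, 1 and 1 in Cas9 DMSO and at 0, 0 and 3 in Cas9 ATRA. Under the HK3-null label it reached 63, 49 and 57 in DMSO and 83, 73 and 99 in ATRA. PGLYRP1 gave a ratio of 56.3 in DMSO (19.0 to 276) and 85 in ATRA (28.8 to 415).

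Both proteases were counted higher under the HK3-null label. MMP8 was counted at 0, 0 and 1 in Cas9 DMSO and 2, 2 and 3 in Cas9 ATRA, against 27, 22 and 15 in DMSO and 29, 29 and 32 in ATRA under the HK3-null label. MMP9 was counted at 5, 1 and 6 in Cas9 DMSO and 1, 1 and 3 in Cas9 ATRA, against 57, 49 and 53 in DMSO and 21, 23 and 20 in ATRA under that label. For both genes the lowest library labelled HK3-null lay above the highest Cas9 library. The genotype ratio of MMP9 was 13.3 in DMSO (7.38 to 26.2) and 12.8 in ATRA (5.21 to 40.8). The ratio of MMP8 was 64 in DMSO (11.1 to 2567) and 12.9 in ATRA (5.99 to 32.9).

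OLFM4, the neutrophil subset marker, was counted at 2, 0 and 0 in Cas9 DMSO and at 6, 4 and 10 in Cas9 ATRA. Under the HK3-null label it was counted at 33, 30 and 20 in DMSO and at 61, 62 and 78 in ATRA. The 4 groups of OLFM4 did not overlap. The genotype ratio was 41.5 in DMSO (11.1 to 348) and 10.1 in ATRA (6.34 to 16.8). OLFM4 lies on chromosome 13, where the median log2 fold change of all tested genes was -0.57 in both treatments, so OLFM4 was higher on a chromosome whose median gene was lower.

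In the fit across all genes, 13590 genes that averaged 8 or more normalized counts in any group were tested on log2(normalized count + 1), a scale that understates changes of low counts. A gene was called at a limma Benjamini-Hochberg adjusted p under 0.05 and a change of at least 2-fold. Of the 7 genes, 6 reached the test and LCN2 did not. Each of the 6 passed the filter only through the libraries labelled HK3-null and so had to differ between genotypes, which means that their being called carries no support of its own. All 6 were called higher in DMSO, where 11.3% of all tested genes were called higher, and all 6 in ATRA, where 12.2% were. Genotype log2 fold changes in DMSO ran from 3.48 for CAMP (SE 0.46, adjusted p = 3.14e-05) to 5.68 for LTF (SE 0.38, adjusted p = 8.11e-08). In ATRA they ran from 3.15 for MMP9 (adjusted p = 5.80e-05) to 5.75 for PGLYRP1 (adjusted p = 3.37e-07). When the deposited log2 values were fitted instead, with every 0 as the log2 of 0.001, PGLYRP1 in DMSO (adjusted p = 0.0578) and MMP8 and OLFM4 in ATRA (adjusted p = 0.148 and 0.217) were no longer called.

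To compare levels between genes, counts were divided by the length of the main transcript. PGLYRP1 was the most abundant per kb under the HK3-null label, at 79.6 ± 9.92 (SD, n = 3) in DMSO and 120 ± 18.5 in ATRA. In DMSO it was followed by LTF at 23.5 ± 2.87, MMP9 at 22.7 ± 1.71 and CAMP at 22.6 ± 5.17 normalized counts per kb, which did not differ beyond their spread. OLFM4 at 9.73 ± 2.39 and MMP8 at 6.98 ± 1.97 came next with overlapping ranges, and LCN2 was lowest at 3.66 ± 2.11, in a range that overlapped that of MMP8. In Cas9 cells no gene exceeded a mean of 2.34 per kb, reached by OLFM4 in ATRA. The order changed in ATRA, where CAMP had 39.5 ± 10.9, OLFM4 23.6 ± 3.36, LTF 14.7 ± 0.637, MMP8 9.82 ± 0.567 and MMP9 9.13 ± 0.654 per kb. CAMP and OLFM4 then overlapped in range, as did MMP8 and MMP9, while LTF stood between these pairs.

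**Figure D2:**
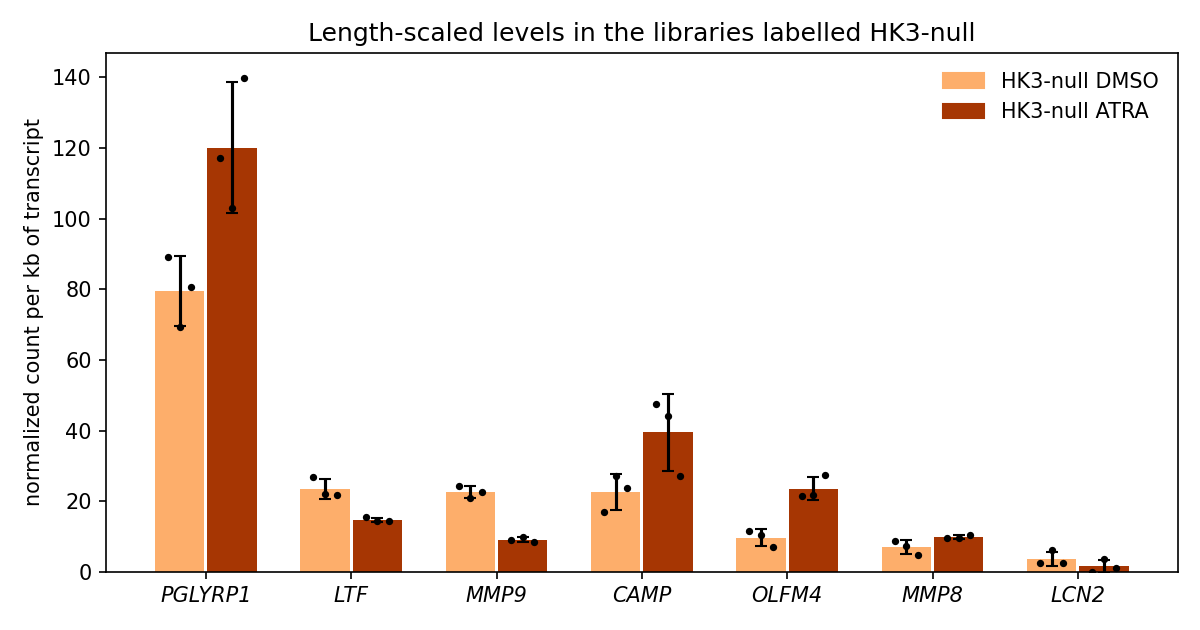
Normalized count per kb of transcript in the libraries labelled HK3-null, in DMSO and ATRA. Bars are means with SD of 3 libraries and points are libraries; PGLYRP1 is highest in both treatments, and LCN2 lowest, at 3.66 and 1.63 per kb.

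ATRA moved these genes in different directions. Within the libraries labelled HK3-null, MMP9 fell from a mean of 53 ± 4 (SD, n = 3) to 21.3 ± 1.53 normalized counts, and OLFM4 rose from 27.7 ± 6.81 to 67 ± 9.54. Neither gene's ATRA and DMSO counts overlapped, and the share of all genes for which this held was not determined. The log2 fold change was -1.27 for MMP9 (SE 0.45, limma adjusted p = 0.0327) and 1.27 for OLFM4 (SE 0.45, adjusted p = 0.0324), and the ratios of summed counts were 0.403 (0.296 to 0.541) and 2.42 (1.87 to 3.17). Of all tested genes, 6.37% were called lower and 8.6% higher with ATRA under the HK3-null label. Both calls lie close to the threshold. Leaving out any of the 6 libraries labelled HK3-null ended the call of MMP9 (adjusted p 0.0628 to 0.0889), and leaving out any of them except DMSO replicate 1 ended that of OLFM4 (adjusted p 0.0601 to 0.111). Dropping the filter on low values raised the adjusted p to 0.0509 for MMP9 and 0.0515 for OLFM4.

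The other 4 tested genes were not called for ATRA under the HK3-null label. Where their counts did not overlap, this is a description only, since the share of all genes without overlap was not determined. LTF had a mean of 64 ± 7.81 counts in DMSO and 40 ± 1.73 in ATRA without overlap (log2 fold change -0.66, limma adjusted p = 0.174). PGLYRP1 had 56.3 ± 7.02 and 85 ± 13.1 without overlap (0.58, limma adjusted p = 0.322). CAMP had 13.3 ± 3.06 and 23.3 ± 6.43 counts (0.75, limma adjusted p = 0.196), with 1 shared value of 16. MMP8 had 21.3 ± 6.03 and 30 ± 1.73 counts without overlap (0.51, limma adjusted p = 0.284). By counting error alone, the interval of the ATRA to DMSO ratio lay below 1 for LTF (0.625, 0.493 to 0.789) and above 1 for PGLYRP1 (1.51, 1.24 to 1.84) and CAMP (1.75, 1.17 to 2.65), and narrowly so for MMP8 (1.41, 1.01 to 1.97). The means of LTF and MMP9 were thus highest in DMSO, and those of PGLYRP1, CAMP, MMP8 and OLFM4 in ATRA.

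In Cas9 cells, OLFM4 was called higher with ATRA (log2 fold change 2.33, SE 0.45, limma adjusted p = 0.00116), at a ratio of 20 counts to 2, or 10 (2.43 to 88.2). MMP8 also passed (limma adjusted p = 0.00970), but all 6 of its Cas9 counts were 3 or fewer and no fold is given. Of all tested genes, 7.04% were called higher and 3.03% lower with ATRA in Cas9 cells. With a pseudocount of 5 in place of 1, MMP8 lost its call (adjusted p = 0.102) and OLFM4 kept its own. MMP9 had a mean of 4 counts in DMSO and 1.67 in ATRA (log2 fold change -0.80, limma adjusted p = 0.179), and without Cas9 DMSO replicate 2 this became -1.36 (adjusted p = 0.0111). LTF, CAMP and PGLYRP1 stayed at 3 counts or fewer in all Cas9 libraries, which leaves no measurable response to ATRA at this depth.

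Whether ATRA acted differently in the 2 genotypes was tested with an interaction term. None of the 6 genes passed in limma (adjusted p 0.320 to 0.741), while 9.38% of all tested genes did. The interaction of PGLYRP1 was 0.91 (SE 0.65, adjusted p = 0.471), and without Cas9 ATRA replicate 3, the only Cas9 ATRA library with PGLYRP1 counts, it was 1.58 (adjusted p = 0.0229). With Cas9 counts this low, a difference in response was hardly detectable.

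**Figure D3:**
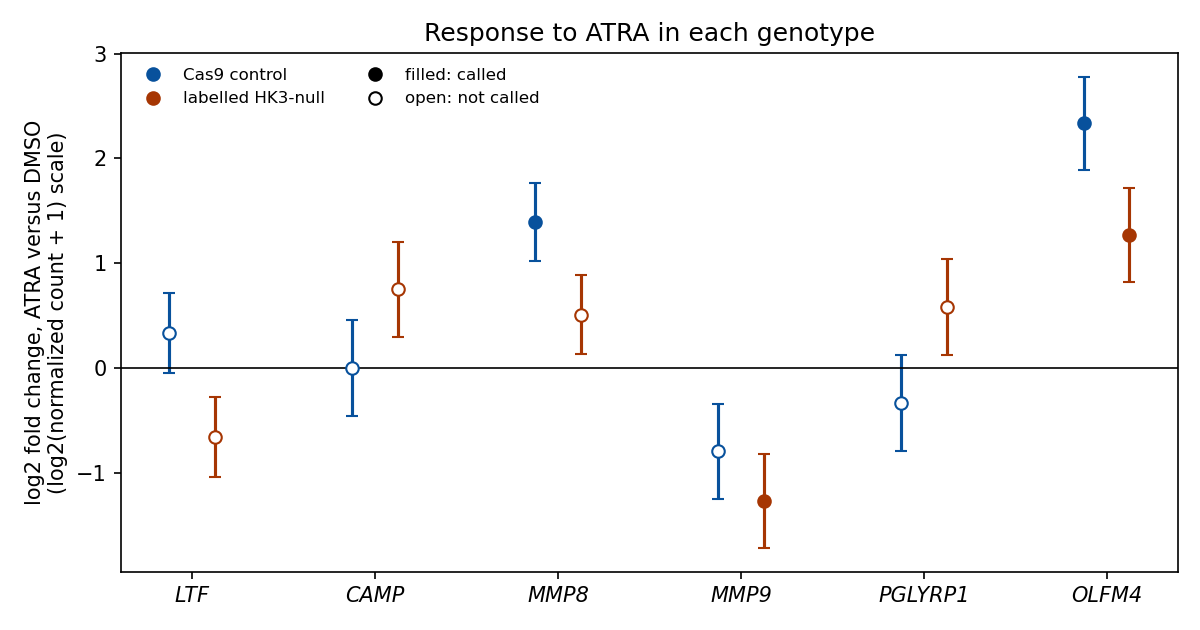
Log2 fold change of ATRA against DMSO on the log2(normalized count + 1) scale, with SE, for the 6 tested genes in Cas9 control libraries and in libraries labelled HK3-null (3 libraries a group). Filled points passed the test; MMP9 lies below 0 and OLFM4 above 0 in both genotypes, with MMP9 called only under the HK3-null label.

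Other genes of the same granules were compared from a list of 30. In DMSO 21 of these were called higher and 1 lower under the HK3-null label, beside 11.3% and 8.58% of all tested genes. In ATRA 23 were called higher and 0 lower, beside 12.2% and 10.4% of all tested genes. The median log2 fold change was 2.82 in DMSO and 2.85 in ATRA, beside -0.01 and 0.00 over all tested genes. Of the 30 genes, 27 were tested, and 4 of these, ARG1 and FCN1 among them, had both Cas9 means under the minimum of 8 counts. These 4 passed the filter only through the libraries labelled HK3-null and so had to differ between genotypes. ARG1, the arginase of neutrophil granules, had a mean of 1 count in Cas9 DMSO and 244 under the HK3-null label (log2 fold change 6.93), and 4.33 and 501 in ATRA (6.64). FCN1, the pattern-recognition protein ficolin-1, had means of 3.33 and 456 in DMSO (6.78) and 1.33 and 327 in ATRA (7.58). ORM2, an acute-phase glycoprotein, had means of 2.33 and 132 in DMSO (5.33) and 19.7 and 1196 in ATRA (5.89). The low counts of LTF, CAMP and MMP8 stood beside higher counts for these 3 genes, which were named for their large genotype changes. Of the 30 genes, 2 were at 0 in all 12 libraries.

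ATRA also acted on this wider list, with 14 of the 30 genes called higher and 4 lower in Cas9 cells, and 14 higher and 3 lower under the HK3-null label. Without Cas9 DMSO replicate 1, 2 were called lower in Cas9 cells. Of all tested genes, ATRA raised 7.04% and lowered 3.03% in Cas9 cells, and raised 8.6% and lowered 6.37% under the label. In Cas9 cells the largest changes with ATRA were those of CFP, which encodes properdin, with means of 46.3 and 2061 in Cas9 DMSO and ATRA (log2 fold change 5.46) and 1052 and 10731 under the HK3-null label (3.35), and ITGAM, the integrin CD11b. ITGAM had means of 25.7 and 1134 in Cas9 cells (5.41) and 350 and 1739 under the label (2.31). Both genes had a smaller log2 response under the HK3-null label, with interactions of -2.11 for CFP (limma adjusted p = 8.35e-06) and -3.10 for ITGAM (limma adjusted p = 5.19e-07). The Cas9 cells thus responded to ATRA in genes of these granules while LTF, LCN2 and CAMP remained at 0 or 1 count.

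Azurophil genes gave a mixed picture. Of 18 listed genes 16 were tested, and 4 were called higher and 2 lower under the HK3-null label in DMSO, and 6 higher and 2 lower in ATRA, with median log2 fold changes of 0.21 and 0.91. Of the 16, 1 had both Cas9 means under 8 counts, so that the filter favoured a higher call for it. Over all tested genes 11.3% were called higher and 8.58% lower in DMSO, and 12.2% and 10.4% in ATRA. With ATRA, 4 azurophil genes were called higher and 4 lower in Cas9 cells (7.04% and 3.03% of all tested genes). Under the label 5 were called higher and 2 lower with ATRA (8.6% and 6.37%). BPI, the bactericidal permeability-increasing protein, had means of 98.3 and 6242 in DMSO (log2 fold change 5.99) and 866 and 23158 in ATRA (4.74). DEFA4, a defensin gene on chromosome 8, had means of 10 and 459 in DMSO (5.44, or 4.39 with the median of its chromosome subtracted), and 97.7 and 1572 in ATRA (2.96 with that median subtracted). DEFA3 had 0 counts in every Cas9 DMSO library and a mean of 1438 under the HK3-null label, but it lies on the same chromosome and has a near-identical copy in DEFA1, so its reads are uncertain. BPI and DEFA4, although stored in azurophil granules, are made later than the proteases of those granules. CTSG, the protease cathepsin G, was lower instead, with means of 11932 and 3461 in DMSO (-1.78).

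**Figure D4:**
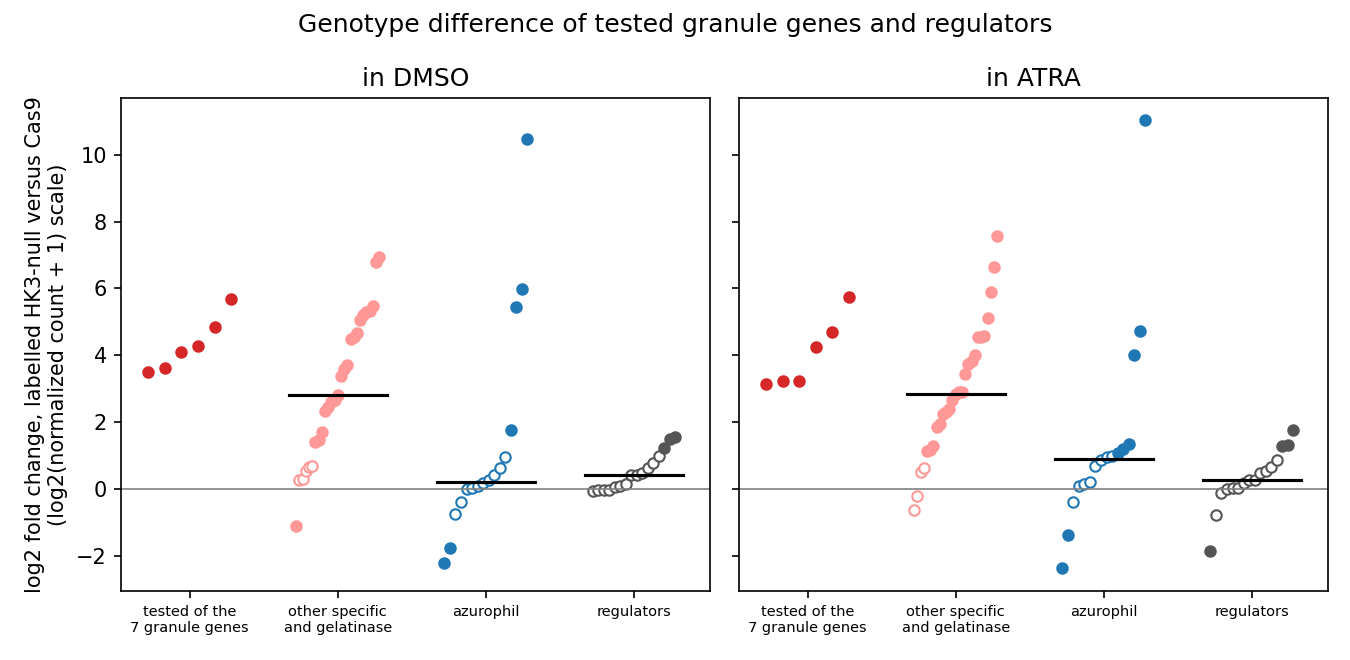
Genotype log2 fold change (HK3-null label over Cas9) in DMSO and ATRA, on the log2(normalized count + 1) scale, for each tested gene of 4 lists. Filled points passed the test and bars are list medians, not drawn for the set itself; the other specific and gelatinase genes have medians of 2.82 and 2.85 and the azurophil genes 0.21 and 0.91.

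Genes of the mature neutrophil membrane were also compared. Of 12 listed genes, 9 were tested, 3 of them with both Cas9 means under 8 counts, so that the filter favoured a higher call for these 3. Of the 12, 6 were called higher in DMSO and 7 in ATRA under the HK3-null label and 0 lower. The shares of all tested genes called higher were 11.3% and 12.2%, and those called lower 8.58% and 10.4%. With ATRA, 2 of the 12 were called higher and 1 lower in Cas9 cells (7.04% and 3.03% of all tested genes). Under the label 2 were called higher with ATRA (8.6%). CR1, a complement receptor, had means of 4.67 and 272 in DMSO (log2 fold change 5.79), and CD14 had 3 and 122 (4.97). CD14 is also in the list of monocyte or macrophage markers below, so it is counted in both lists. FCGR3B, the Fc receptor of mature neutrophils, was at 0 in all 6 Cas9 libraries and at 14 to 31 counts under the label. CSF3R, the G-CSF receptor, rose with ATRA under the label from a mean of 4043 to 12772 (log2 fold change 1.66). Both higher calls with ATRA in Cas9 cells were lost (0 of 12) without Cas9 ATRA replicate 1 or 2 or Cas9 DMSO replicate 1, 1 was lost without Cas9 DMSO replicate 2 or 3, and the lower call was lost without Cas9 ATRA replicate 3.

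Transcription factors of granulocytes and neighbouring lineages formed a list of 18 regulators, of which 16 were tested. Under the HK3-null label 3 were called higher and 0 lower in DMSO and 3 higher and 1 lower in ATRA, with median log2 fold changes of 0.41 and 0.27. Counts this small are read beside the 11.3% higher and 8.58% lower of all tested genes in DMSO and the 12.2% and 10.4% in ATRA, and nothing particular to the regulators is drawn from them. CEBPE, which encodes C/EBPε, the factor of specific granule genes, was already abundant in Cas9 cells, with means of 4810 in DMSO and 12450 in ATRA, against 7444 and 17979 under the label. Its genotype log2 fold changes of 0.63 (SE 0.07, limma adjusted p = 6.78e-06) and 0.53 were under the 2-fold limit, while ATRA raised it by 1.37 in Cas9 cells and 1.27 under the label. CEBPA, GFI1 and SPI1, further regulators of granulocyte genes, were likewise under 2-fold in both genotype comparisons, at 0.78, 0.13 and 0.47 in DMSO and 0.47, 0.26 and 0.65 in ATRA. The same Cas9 libraries held at least 4511 counts of CEBPE and at most 1 count of LTF, and a link between these levels was not tested.

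CEBPD was called higher under the label in DMSO (1.23) and ATRA (1.75), but it lost both calls once the median of its chromosome was subtracted. GATA2, a factor of early progenitors, was called higher in DMSO (1.55) and fell with ATRA by 3.15 on the log2 scale in Cas9 cells and by 3.84 under the label. IRF8, a factor of monocyte fate, was higher under the label in DMSO (1.49) and lower in ATRA (-1.86), with an interaction of -3.35 (limma adjusted p = 0.000210). CEBPB rose with ATRA by 2.95 in Cas9 cells and by 3.86 under the label. Among the regulators, 2 were called higher and 3 lower with ATRA in Cas9 cells (7.04% and 3.03% of all tested genes). Under the label 3 were called higher and 4 lower with ATRA (8.6% and 6.37%).

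Inhibitors, receptors and partners of the granule proteins formed a list of 18 genes, of which 10 were tested. Under the HK3-null label 3 were called higher in DMSO and 5 in ATRA and 0 lower. Shares of all tested genes were 11.3% and 12.2% higher, and 8.58% and 10.4% lower. ATRA itself raised 2 of the list and lowered 3 in Cas9 cells (7.04% and 3.03% of all tested genes). It raised 3 and lowered 2 under the label (8.6% and 6.37%). TIMP1, the inhibitor that binds MMP9, had means of 320 and 1198 in DMSO (log2 fold change 1.91) and 729 and 4178 in ATRA (2.52). TIMP1 therefore rose with ATRA under the label, by 1.80 (limma adjusted p = 1.21e-08), in the same libraries where MMP9 fell. TREM1, a receptor that PGLYRP1 can engage, had means of 6 and 29 in DMSO (2.12) and 12 and 75.7 in ATRA (2.55). FPR2, the receptor of LL-37, had 308 and 502 in DMSO (0.71, not called) and 146 and 875 in ATRA (2.57), with an interaction of 1.86 (limma adjusted p = 0.000133). P2RX7 fell with ATRA by 2.93 under the label, and TIMP2 rose by 2.06.

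Of 21 other matrix metalloproteinases, 5 were at 0 in all 12 libraries and 6 were tested. In both treatments 3 were called higher and 1 lower under the HK3-null label. Of the 6 tested, 1 had both Cas9 means under 8 counts, so that the filter favoured a higher call for it. The shares of all tested genes were 11.3% higher and 8.58% lower in DMSO, and 12.2% and 10.4% in ATRA. MMP25, a membrane-anchored enzyme of gelatinase granules that is also in the list of 30, had means of 34.3 and 246 in DMSO (log2 fold change 2.82) and 88.7 and 676 in ATRA (2.91). It rose with ATRA by 1.44 under the label, where MMP9 fell. MMP17 was higher by 3.82 in DMSO and fell with ATRA by 1.40 under the label. MMP2 was lower by 2.92 in DMSO, although its Cas9 DMSO counts of 617, 141 and 140 were widely spread. With ATRA 1 of the list was called higher and 1 lower in Cas9 cells (7.04% and 3.03% of all tested genes). Under the label 2 were called higher and 1 lower with ATRA (8.6% and 6.37%). The lower call in Cas9 cells rested on single libraries (0 without Cas9 ATRA replicate 3 or Cas9 DMSO replicate 1 or 3, and 2 without Cas9 DMSO replicate 2), and 1 of the 2 higher calls was lost without any library labelled HK3-null except ATRA replicate 3. Without Cas9 DMSO replicate 2, 2 were lower under the label in DMSO.

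Markers of other cell types moved as well, and their calls are read beside the shares of all tested genes. Under the HK3-null label those shares were 11.3% higher and 8.58% lower in DMSO, and 12.2% and 10.4% in ATRA. Nothing is drawn from lists with only 1 or 2 calls. Among tested markers, 1 of 4 for monocytes or macrophages and 1 of 2 for lymphocytes had both Cas9 means under 8 counts. For these the filter favoured a higher call. Of 7 eosinophil markers, 6 were called higher under the HK3-null label in DMSO and in ATRA. These were the 6 that were tested, and 3 of them had both Cas9 means under 8 counts and so, having passed the filter, had to differ between genotypes. Their summed level was 7265 to 8181 in Cas9 DMSO, 515 to 642 in Cas9 ATRA, 163523 to 171227 in DMSO under the label and 43849 to 52750 in ATRA under the label, most of it PRG2. EPX, the eosinophil peroxidase, was counted at 3, 3 and 3 in Cas9 DMSO and at 652, 694 and 509 in DMSO under the label. The part of an eosinophil-like programme in the levels of the 7 granule genes was not tested. Monocyte or macrophage markers summed to 144 to 241 in Cas9 DMSO, 1440 to 1963 in Cas9 ATRA, 337 to 370 and 956 to 983 under the label, with 2 of 9 called higher in DMSO and 1 higher and 1 lower in ATRA. That lower call was lost (0) without Cas9 ATRA replicate 3 or ATRA replicate 1 or 2 under the label, and 1 was lower in DMSO without Cas9 DMSO replicate 2 or 3. Basophil or mast cell markers summed to 538 to 669, 93 to 120, 1244 to 1577 and 114 to 124 in the same order, with 1 of 5 called higher and 1 lower in DMSO and 1 lower in ATRA, joined by 1 higher without Cas9 ATRA replicate 1. Lymphocyte markers summed to at most 119 counts in any library, with 1 of 6 called higher in each treatment, and 0 without Cas9 ATRA replicate 2 or, in DMSO, without replicate 2 of either genotype or Cas9 replicate 3. Erythroid markers reached at most 14 counts and none was tested.

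Of 8 promyelocyte markers, 0 were called higher and 1, CTSG, lower under the label in each treatment. All tested genes gave 11.3% higher and 8.58% lower in DMSO, and 12.2% and 10.4% in ATRA. ATRA lowered 3 of the markers in Cas9 cells and 2 under the label, beside 3.03% and 6.37% of all tested genes. Genes known to respond directly to ATRA, a list of 13, checked the treatment. In both genotypes ATRA raised 10 of them and lowered 0, with median log2 fold changes of 4.77 in Cas9 cells and 4.82 under the label. Of all tested genes it raised 7.04% in Cas9 cells and 8.6% under the label. The interaction test called 3 of the 12 tested higher and 4 lower under the label, beside 4.49% and 4.89% of all tested genes. The like medians therefore do not mean that each gene responded alike in the 2 genotypes. The near 0 counts of the granule genes in Cas9 ATRA come from these same libraries. Why those genes stayed near 0 was not tested.

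Likeness in pattern was measured by Pearson's r over the 12 libraries among 11251 genes, and is given as a description because most of it reflects the genotype step that the libraries share. LTF was most like LACTB2 (r = 0.995), OTUD1 (0.994) and MCPH1 (0.993). Both LACTB2 and MCPH1 lie on chromosome 8. The genotype log2 fold change of DEFA4 on that chromosome fell in DMSO from 5.44 to 4.39 once the chromosome median was subtracted. MMP9 was most like BMP8B (0.988), LOXHD1 (0.986) and LAMP5 (0.985), which were also lower in ATRA than in DMSO under the HK3-null label. PGLYRP1 was most like SLC2A3 (0.991), GSTM3 (0.991) and STAT3 (0.990), and OLFM4 like S100A6 (0.984), ABHD4 (0.981) and SERPINA1 (0.981). Among the 7 genes themselves r ran from 0.414 for LCN2 with OLFM4 to 0.966 for LTF with PGLYRP1, and the next lowest pair without LCN2 was MMP9 with OLFM4 at 0.722.

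In the ATACseq data, 0 of the 8286 deposited regions listed any of the 7 genes. These regions were all selected for a difference of at least 1.5-fold between the genotypes in ATRA, so a region with less difference at these genes would not be among them. The nearest region to a transcript start lay 15.0 kb away for MMP9, 60.2 kb for MMP8 and 70.0 kb for PGLYRP1. For OLFM4, LTF, LCN2 and CAMP it lay 182, 228, 230 and 256 kb away. Within 100 kb there were 3 regions for MMP9 and 1 each for MMP8 and PGLYRP1.

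The region 15.0 kb upstream of MMP9, at chr20:45993380-45993861 as deposited, had ATAC signals of 157 and 157 in Cas9 DMSO, 67.6 and 45 in Cas9 ATRA, 247 and 190 in DMSO under the HK3-null label and 137 and 119 in ATRA under that label. Its signal was lower with ATRA in Cas9 cells, by 1.49 on the log2(signal + 1) scale (SE 0.28, limma adjusted p = 0.000219), in a test that called 18.2% of 6214 regions. Under the label the difference was -0.76 (SE 0.28, limma adjusted p = 0.0608), not called, where 16.8% of regions were. Both ATRA comparisons share libraries with the selection for a genotype difference in ATRA, which was 1.19 for this region. A low Cas9 ATRA signal favours that selection, so these p-values are not free of it. The genotype difference in DMSO was 0.46 (limma adjusted p = 0.123), not called, although 86.6% of these selected regions were called in that comparison. The region was thus called lower with ATRA in Cas9 cells only and the MMP9 message under the label only, and whether the response to ATRA differed between genotypes was not tested for the region. Both Cas9 DMSO signals lay above those in ATRA under the label, whereas the MMP9 counts of Cas9 DMSO lay below.

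The neighbouring region 16.9 kb upstream had signals of 29.4 and 23.1 in Cas9 DMSO, 34.8 and 11.9 in Cas9 ATRA, 56.9 and 59.3 in DMSO under the label and 65 and 81.9 in ATRA under it. It was higher under the label in DMSO (log2 difference 1.13, limma adjusted p = 0.00490) and was not called for ATRA in either genotype. Its ATRA difference in Cas9 cells rested on single libraries, at -1.07 (limma adjusted p = 0.0268, called) without Cas9 ATRA replicate 1 and at 0.40 (not called) without Cas9 ATRA replicate 2. The region 70.0 kb from PGLYRP1, listed with NOVA2, was higher under the label in DMSO by 2.09 (limma adjusted p = 6.46e-05). The region 60.2 kb from MMP8 was lower by 1.69 (limma adjusted p = 0.000238), opposite to the MMP8 message. Each of these regions was selected for a genotype difference in ATRA, which was 1.78, 2.51 and -1.83 in the order given. In DMSO 86.6% of the selected regions tested were called, so these DMSO calls carry little support of their own. Nothing in these data ties any of these regions to the genes named beside them.

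**Figure D5:**
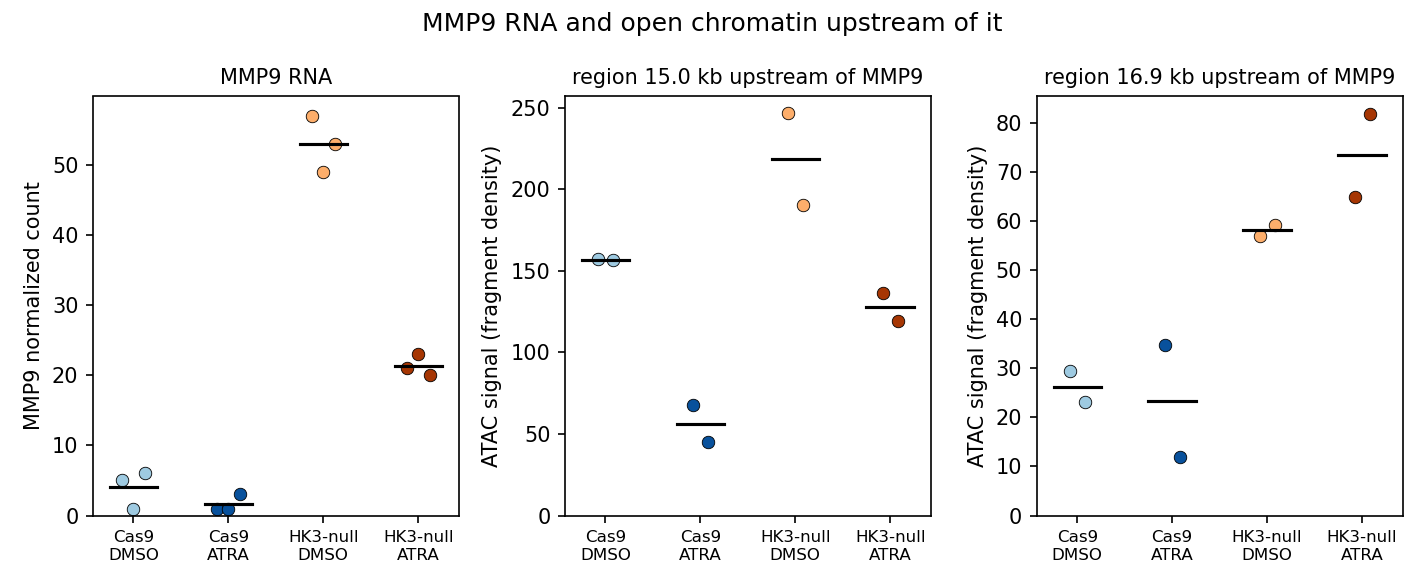
MMP9 normalized count in 12 RNAseq libraries, and ATAC signal (authors' fragment density) in 8 ATACseq libraries for the 2 deposited regions nearest to its start, by genotype and treatment. Points are libraries and bars are means; the region at 15.0 kb falls from 157 in Cas9 DMSO to 67.6 and 45 in Cas9 ATRA.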

How the data were processed

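Per the labels and methods, directional paired-end RNAseq reads were mapped to GRCh38; the RNAseq aligner and counter were not given in the sources used here. The authors deposited log2 values of counts scaled with DESeq2, with 0 written as the log2 of 0.001. Raising 2 to these values gave whole numbers within 1% for 100% of values, called normalized counts. RPKM is the unit named in the methods, but the values showed whole counts with no division by gene length, so they were not treated as RPKM. Scaling factors estimated from their steps lay between 0.7805 and 1.215, for a depth of 22700000 to 37000000 counts. Rows without a gene name (330 of 28381, at most 0.00926% of counts) were left out. For ATACseq, the authors aligned with bwa mem, called peaks with MACS2, merged them, reduced libraries to equal fragment numbers and deposited a signal per region. Its depth is unknown.

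Normalized counts were fitted as log2(count + 1) with limma 3.58.1 in R 4.3.3 (trend), 12 libraries and 4 group means. Genes with a group mean of at least 8 were tested. Calls needed 2-fold and a Benjamini-Hochberg adjusted p below 0.05, and interactions only the latter. ATAC signal was fitted as log2(signal + 1) over regions with a mean above 17.1, with a limit of 1.5-fold. Ratios are of summed normalized counts, with exact 95% conditional intervals. The methods call the replicates biological, but the labels do not tie them to separate cultures, so p-values measure the spread between these samples, which may be technical. Same-numbered libraries deviated together in all 18 pairs across groups (r 0.178 to 0.631, against -0.643 to 0.286 for 36 pairs of unlike number, over 10667 genes), so a fit with replicate as a block was an alternative. The members and lists were chosen with earlier results of these data known. All 7 genes are named. From each list up to 3 called genes with the largest genotype change and 2 with the largest ATRA change are named, with CEBPE, CEBPA, GFI1, SPI1, TIMP1, TREM1 and FPR2 always. A gene that this rule selects is not reported here. Scripts were tested on simulated data. Alternatives were other pseudocounts, filters, scalings, fold limits, fits of 2 groups, chromosome centring and leaving out each library.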

Additional observations from a re-analysis of the deposited data

Results flagged for a closer look

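None of the 7 granule genes met a rule for a closer look, since groups of 3 libraries are too small for a test of outlying libraries and no member passed the interaction test. Named genes of the other lists did, because their response to ATRA differed between the genotypes by the limma interaction test (labelled HK3-null minus Cas9, log2 scale). The response was smaller or more negative under the HK3-null label for CFP (-2.11), ITGAM (-3.10), BPI (-1.25), DEFA4 (-1.44), IRF8 (-3.35), CSF1R (-2.50), SIGLEC8 (-2.79), CD38 (-4.63) and HK3 itself (-1.89, adjusted p = 0.00121). It was larger or less negative for CSF3R (0.77), CEBPD (0.53, adjusted p = 0.0357), CEBPB (0.91), FPR2 (1.86), TIMP1 (0.61), TIMP2 (0.80), PRG2 (2.81), TGM2 (4.28) and CYP26A1 (3.73). SIGLEC8 had 0 or 1 count in Cas9 cells, and CYP26A1 had 0 in Cas9 DMSO, so the sizes of these 2 depend on the pseudocount. The CEBPD interaction lost its call without any library except Cas9 ATRA replicate 3, HK3-null ATRA replicate 1 and HK3-null DMSO replicate 3 (adjusted p up to 0.0939), and that of TIMP2 without Cas9 ATRA replicate 1, HK3-null ATRA replicate 3 or HK3-null DMSO replicate 1 or 3 (up to 0.0579). These values were not examined further.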

How the results depend on the processing

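The 6 genotype differences of the tested granule genes kept their direction in DMSO and in ATRA under all alternatives, and their calls under all except the deposited log2 values (report) and, for CAMP and MMP8, a minimum group mean of 50, at which they were not tested and 4 genes were called. Keeping a call under a filter on low values adds no support, since the 6 genes passed it only through the libraries labelled HK3-null. The size of the differences moved with the pseudocount and the value used for 0. In DMSO it ran from 3.69 to 12.6 on the log2 scale for LTF and 1.77 to 10.4 for CAMP. For PGLYRP1 in ATRA it ran from 3.93 to 12.5. The lowest sizes came with a pseudocount of 5 and the highest with the deposited log2 values. The count of granule genes called for ATRA under the HK3-null label was 2, and became 0 with a pseudocount of 0.5, with the deposited values and with no filter, and 0 to 2 when 1 library was left out. In Cas9 cells the count was 2, and 1 with a pseudocount of 5 or a minimum group mean of 50. The interaction count was 0, and 0 to 1 when 1 library was left out. The interaction of OLFM4, -1.07, turned to 0.13 with a pseudocount of 5, and that of MMP9, -0.48, ran from -0.81 to 0.089 when 1 library was left out, the last without Cas9 DMSO replicate 2. Neither was called. The cause was not tested.

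The replicate block changed no call of a granule gene, with MMP9 at -1.27 (adjusted p = 0.0173) and OLFM4 at 1.27 (adjusted p = 0.0206) for ATRA under the HK3-null label, while interactions called over all genes went from 1275 to 3142. A limit of 1.5-fold in place of 2-fold took the genes called from 2704 to 4460 (genotype in DMSO), 3068 to 5122 (genotype in ATRA), 1369 to 2662 (ATRA in Cas9) and 2035 to 3748 (ATRA under the label). Quantile normalization moved the share of higher calls from 69.9% to 57.7% for ATRA in Cas9 cells. ATAC regions called for ATRA, 1128 in Cas9 cells and 1046 under the label, fell to as few as 495 (without Cas9 DMSO replicate 2) and 471 (without HK3-null DMSO replicate 1). Counts under 4 in Cas9 cells limit every ratio taken against them, and groups of 3 libraries from lines not known to be several clones limit the tests.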
